A study of Mus musculus with 4 samples.

Results

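The genes that copy DNA were examined in ZHBTc4 mouse embryonic stem cells, a line in which doxycycline shuts off the pluripotency factor gene Oct4 (Pou5f1). The set holds 39 genes, chosen by name for their roles in replication and found among the array's non-control spots through 53 probes in 62 spots, out of 21409 genes with a tested probe. In the dox+TCP group, cells received doxycycline and TCP, and in the dox group doxycycline alone, for 48 h at 2 µg of doxycycline in both groups. TCP is not spelled out in the labels; the study concerns the histone demethylase LSD1, and in that field the letters usually stand for the inhibitor tranylcypromine. Each group had 2 arrays, described as biological replicates, and every array carried the treated cells in Cy5 and untreated ZHBTc4 cells in Cy3 as the reference, with no dye swap. The arrays were scanned on 2 days, and dox+TCP replicate 2 was the only array scanned apart from the others. All cells belong to this 1 line and had come off fibroblast feeders through gelatin passages, so each value compares treated with untreated cells of the same engineered line.

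In late mitosis and the first gap phase, the origin recognition complex, Cdc6 and Cdt1 load rings of the MCM helicase on DNA, a step called licensing that geminin (Gmnn) blocks once replication has begun. In S phase the rings are activated by Cdc45, the GINS complex and Mcm10, primase and the polymerases copy the strands, and the clamp PCNA, its loader RFC and the single-strand binding protein RPA keep synthesis going. Mouse embryonic stem cells divide fast and spend much of their cycle in S phase, and many replication genes are known targets of E2F transcription factors, whose binding site has the core letters TTTCCCGC or close variants.

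RefSeq promoter windows of the assembly GRCm38.p6, from 250 bases before to 50 bases after a gene's start, were found for 32 of the 39 genes; Gins1, Gins2, Gmnn, Mcm4, Pole, Prim2 and Rfc2 had no entry. The strings TTTCCCGC, TTTGGCGC, TTTCGCGC and TTTGCCGC, which can overlap one another on opposite strands, were searched on both strands. At least 1 of them stood in a window of 12 of the 32 genes (37.5%), against 2.6% of all 27025 genes with a window. The shorter string CCAAT stood in a window of 21 of the 32 genes (65.6%), against 41.1% of all genes. The 12 genes were Orc1, Cdc6, Cdt1, Mcm3, Mcm5, Mcm6, Mcm7, Pola1, Pold1, Pole2, Rfc3 and Lig1. The windows of 6 of them are shown 5′ to 3′ with the matches in capitals. After loess normalization, Orc1, Mcm3, Mcm5 and Mcm6 had ratios below 0 on every array. The licensing genes Cdc6 and Cdt1, which carry the same strings, then had ratios above 0 on both dox arrays. The side of 0 on which Orc1, Mcm3, Mcm5 and Mcm6 lay with dox depended on the normalization. With median centring of each array in place of loess, all 6 dox estimates lay above 0. They were 0.16 for Orc1, 0.11 for Mcm3, 0.039 for Mcm5, 0.19 for Mcm6, 1.11 for Cdc6 and 0.98 for Cdt1. Cdc6 and Cdt1 still lay above the others, and of the 6 only they passed the test with dox (limma adjusted p = 0.0142 and 0.0273). With dox+TCP the centred estimates of Orc1 (−0.19), Mcm3 (−0.29), Mcm5 (−0.32) and Mcm6 (−0.23) stayed below 0.
Orc1 (chr4:108579204-108579503, plus strand): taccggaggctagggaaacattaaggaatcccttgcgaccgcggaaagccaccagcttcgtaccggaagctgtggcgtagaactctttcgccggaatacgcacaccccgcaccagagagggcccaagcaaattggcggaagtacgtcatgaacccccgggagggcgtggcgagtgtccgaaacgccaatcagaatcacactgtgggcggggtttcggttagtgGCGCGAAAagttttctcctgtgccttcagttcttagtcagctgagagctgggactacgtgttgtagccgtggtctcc
Mcm3 (chr1:20820263-20820562, minus strand): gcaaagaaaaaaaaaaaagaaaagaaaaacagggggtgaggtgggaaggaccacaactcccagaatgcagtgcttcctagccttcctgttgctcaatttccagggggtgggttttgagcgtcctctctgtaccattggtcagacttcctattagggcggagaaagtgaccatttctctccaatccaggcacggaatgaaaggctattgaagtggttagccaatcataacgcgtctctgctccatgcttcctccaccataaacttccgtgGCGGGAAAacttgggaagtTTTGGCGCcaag
Mcm5 (chr8:75109259-75109558, plus strand): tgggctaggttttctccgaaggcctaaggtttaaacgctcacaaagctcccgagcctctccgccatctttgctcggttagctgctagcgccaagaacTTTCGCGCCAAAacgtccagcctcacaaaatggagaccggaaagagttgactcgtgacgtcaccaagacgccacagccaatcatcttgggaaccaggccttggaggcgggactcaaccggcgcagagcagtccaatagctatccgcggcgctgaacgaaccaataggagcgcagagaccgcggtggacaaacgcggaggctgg
Mcm6 (chr1:128359656-128359955, minus strand): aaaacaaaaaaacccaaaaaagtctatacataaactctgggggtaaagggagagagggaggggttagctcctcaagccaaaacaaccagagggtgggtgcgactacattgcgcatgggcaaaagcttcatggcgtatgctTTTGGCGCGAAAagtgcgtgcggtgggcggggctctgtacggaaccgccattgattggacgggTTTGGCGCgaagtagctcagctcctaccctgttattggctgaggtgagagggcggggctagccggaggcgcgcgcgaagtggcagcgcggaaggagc
Cdc6 (chr11:98907901-98908200, plus strand): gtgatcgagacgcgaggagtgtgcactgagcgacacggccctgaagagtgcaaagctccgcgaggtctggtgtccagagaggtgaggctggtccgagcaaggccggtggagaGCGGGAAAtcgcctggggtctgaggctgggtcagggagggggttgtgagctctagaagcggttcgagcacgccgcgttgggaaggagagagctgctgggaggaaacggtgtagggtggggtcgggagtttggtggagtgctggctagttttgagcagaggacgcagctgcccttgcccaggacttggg
Cdt1 (chr8:122567765-122568064, plus strand): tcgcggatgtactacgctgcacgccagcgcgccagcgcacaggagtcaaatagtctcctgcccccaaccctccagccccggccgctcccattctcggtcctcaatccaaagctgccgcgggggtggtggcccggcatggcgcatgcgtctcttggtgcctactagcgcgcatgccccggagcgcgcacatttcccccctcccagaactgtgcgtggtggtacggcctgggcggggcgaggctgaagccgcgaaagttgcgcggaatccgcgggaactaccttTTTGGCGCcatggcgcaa
In Mcm5 and Mcm6 a run of 12 capitals holds 2 overlapping matches on opposite strands.

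The chosen probes of all 39 genes were well above background in both channels of all 4 arrays, and none was saturated. The median Cy5 signal of an array was 213 to 249 and the median Cy3 signal 108 to 141. The number of arrays limits the precision. Pou5f1, the gene that doxycycline shuts off, had log2 ratios of −3.29 and −3.28 on the dox+TCP arrays and −3.38 and −3.62 on the dox arrays. This checks the doxycycline that both groups received, and not which arrays had TCP. Of the 8 stem cell markers, 6 fell with dox+TCP and 7 with dox after loess, where 8.09% and 8.26% of all genes were called lower. With median centring of each array 6 fell in each group and 1 rose with dox, where 5.17% of all genes were lower with dox+TCP and 5.31% with dox. None of the 8 trophoblast markers passed the test after loess, with median log2 ratios of 1.15 with dox+TCP and 1.77 with dox. With median centring of each array 2 rose with dox+TCP (median 1.55) and 3 with dox (2.33). Of all genes 18.7% and 22.8% were then called higher. With the scanner's own log ratio 1 of the 8 rose in each group. All 8 trophoblast markers were well above background in the reference too. Their mean log2 intensity in Cy5 was 12.1 to 12.3 on the dox+TCP arrays and 12.4 to 12.6 on the dox arrays, and in the Cy3 reference 11.7 and 11.9 on the replicate 2 arrays and 10.2 and 10.4 on the replicate 1 arrays. Of 10 feeder fibroblast markers, 1 rose and 1 fell with dox+TCP after loess, and 0 rose and 1 fell with dox. These counts are near the shares of all genes, 8.09% lower and 7.31% higher with dox+TCP and 8.26% and 6.32% with dox. With median centring 1 feeder marker rose and 1 fell in each group. The mean log2 intensity of the 10 markers ran from 7.85 to 8.37 in dox+TCP cells, 7.86 to 7.88 in dox cells and 7.8 to 8.46 in the reference. The replication genes' reference intensity had a median of replicate 2 minus replicate 1 of −0.015 on the log2 scale, where all genes had 0.071. By role this median ran from −0.22 for the polymerases and primase to 0.18 for nucleotide supply. The replication genes' Cy5 intensity was lower on the replicate 2 arrays (median difference −0.22, where all genes had 0.089). The part of the changed cell types in these values was not tested.

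Against the reference, the replication genes were on the whole lower in both treated groups after loess normalization, although with median centring of each array in its place the median of the set stayed below 0 with dox+TCP (−0.13) and turned above 0 with dox (0.18). A gene was called where limma's Benjamini-Hochberg adjusted p over all 21409 genes was under 0.05. With dox+TCP 14 of the 39 genes fell and 0 rose, against 8.09% of all genes called lower and 7.31% called higher. With dox 9 of 39 fell and 0 rose, against backgrounds of 8.26% lower and 6.32% higher. With median centring 2 fell and 2 rose with dox+TCP, where 5.17% of all genes were called lower and 18.7% higher, and 0 fell and 4 rose with dox, where 5.31% were lower and 22.8% higher. The median log2 ratio of the set was −0.57 with dox+TCP, where all genes had 0.033, and −0.46 with dox, where all genes had −0.0011. The estimate was below 0 for 36 genes with dox+TCP and for 35 with dox. Array by array, 36 and 37 of the 39 ratios lay below 0 with dox+TCP and 32 and 34 with dox, while among all genes 46.1% and 45.9% did with dox+TCP and 49.9% and 48.8% with dox. In such bulk RNA, fewer cells in S phase and less RNA per cell cannot be told apart. The ratios spanned from −1.86 to 0.34 on the dox+TCP arrays and from −2.21 to 0.56 on the dox arrays. These calls need both dox+TCP arrays: without either one, with local backgrounds used as read, or with the scan day as a block, 0 genes were called in either comparison, and without dox replicate 2 the count with dox was 2 of 39.

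**Figure D1:**
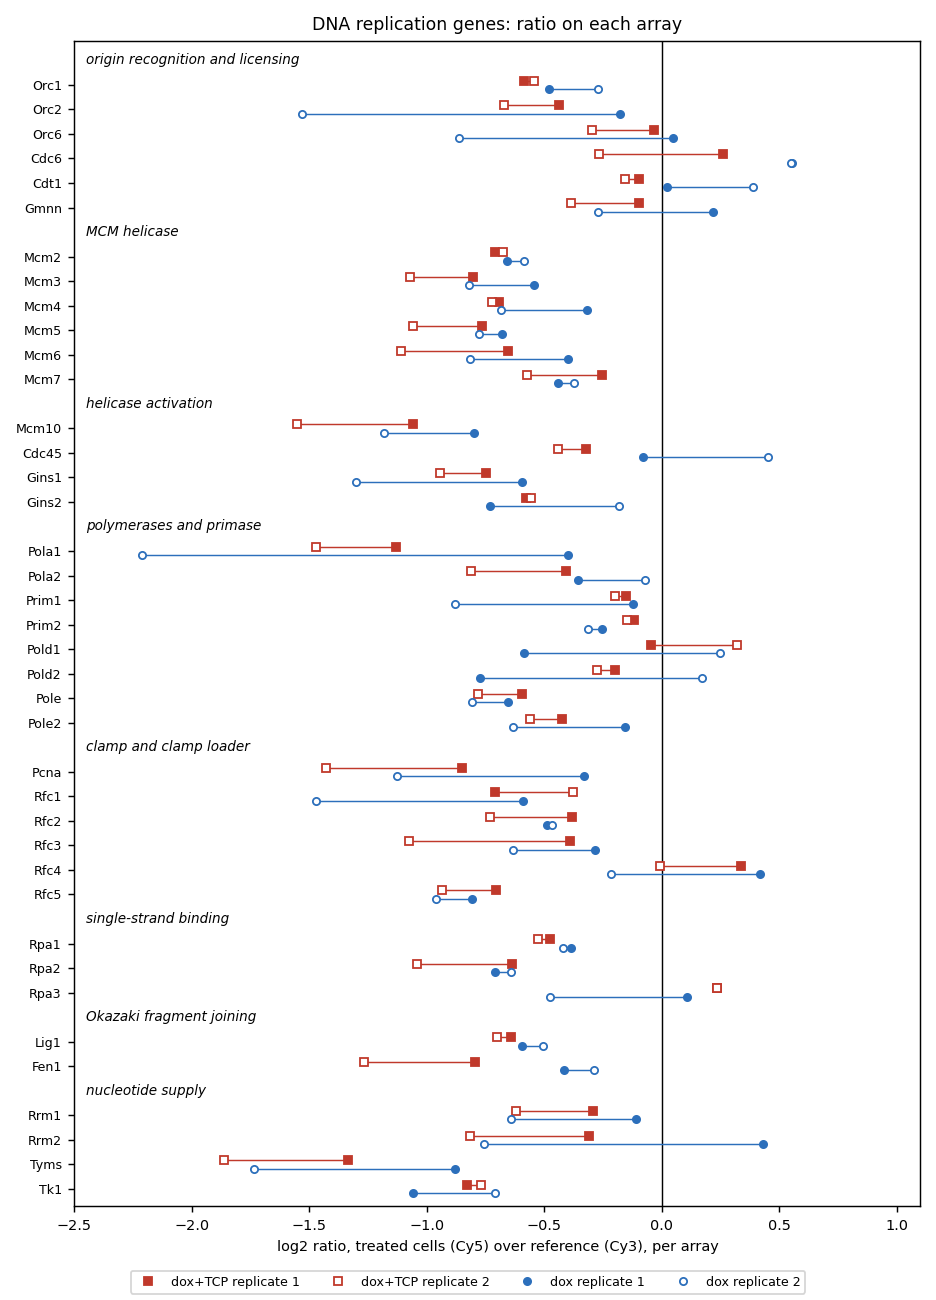
Log2 ratio of treated cells (Cy5) over the untreated reference (Cy3) for each of the 39 genes, grouped by role; squares are dox+TCP arrays, circles dox arrays, filled symbols replicate 1 and open symbols replicate 2, and a line joins the 2 arrays of a group. After loess 14 genes passed the test as lower with dox+TCP and 9 with dox, and with median centring of each array 2 and 0 did.

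Of the 6 origin recognition and licensing genes, 1 fell with dox+TCP and 0 with dox after loess, with median log2 ratios of −0.20 in both groups that became 0.37 with dox+TCP and 0.53 with dox under median centring. Orc1, an ATPase subunit of the origin recognition complex, had log2 ratios of −0.59 and −0.55 on the dox+TCP arrays and −0.48 and −0.27 on the dox arrays. All 4 arrays were low, the groups did not overlap, and Orc1 fell with dox+TCP (−0.57, SE 0.093, limma adjusted p = 0.0383) and was not called with dox (−0.38, adjusted p = 0.0804). Its centred estimates were −0.19 with dox+TCP and 0.16 with dox. Cdc6, the ATPase that brings the MCM rings to origins, had 0.26 and −0.27 with dox+TCP and 0.56 and 0.55 with dox. The dox arrays agreed closely and both lay above the dox+TCP arrays, which fell on either side of 0; neither estimate passed (−0.0039 with dox+TCP, limma adjusted p = 0.989, and 0.55 with dox, adjusted p = 0.101). A dimmer second probe for Cdc6 gave 0.41 with dox+TCP and 0.50 with dox, so the probes part with dox+TCP. Cdt1, the partner of Cdc6 in loading, had −0.10 and −0.16 with dox+TCP and 0.02 and 0.39 with dox. The 2 groups of Cdt1 lay on opposite sides of 0. Geminin, the Cdt1 inhibitor, had −0.10 and −0.39 with dox+TCP and 0.22 and −0.27 with dox, which overlap. With median centring Cdc6 (1.11), Cdt1 (0.98) and Gmnn (0.77) passed the test as higher with dox, and none of the 3 did with dox+TCP. Orc2 and Orc6, 2 further subunits of the origin complex, had a dox replicate 2 ratio (−1.53 and −0.86) far below their dox replicate 1 ratio (−0.18 and 0.05) and did not pass in either group.

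The 6 subunits of the MCM helicase ring, Mcm2 to Mcm7, had estimates below 0 in both groups and ratios below 0 on every array after loess; with median centring 5 of 6 estimates stayed below 0 with dox+TCP and 0 of 6 with dox. Mcm2 had log2 ratios of −0.71 and −0.68 on the dox+TCP arrays and −0.66 and −0.59 on the dox arrays. These 4 values lay close together, without overlap between the groups. Mcm2 fell by 38.2% with dox+TCP (log2 −0.69, SE 0.078, limma adjusted p = 0.0228) and fell by 35.1% with dox (−0.62, SE 0.078, adjusted p = 0.0263). Mcm3 had −0.80 and −1.07 with dox+TCP and −0.55 and −0.82 with dox. The replicate 2 array was the lower one in each group, and the groups overlapped slightly. Mcm3 fell with dox+TCP (−0.94, SE 0.12, limma adjusted p = 0.0272) and with dox (−0.68, SE 0.12, adjusted p = 0.0458), and its second probe gave −1.08 with dox+TCP and −0.66 with dox. Mcm5 had −0.77 and −1.06 with dox+TCP and −0.68 and −0.78 with dox, again overlapping at the edge. It fell with dox+TCP (−0.91, limma adjusted p = 0.0245) and with dox (−0.73, adjusted p = 0.0334). Mcm4 had −0.69 and −0.72 with dox+TCP and −0.32 and −0.68 with dox, and was called only in the comparison of dox+TCP with the reference (−0.71, limma adjusted p = 0.04, against −0.50 and adjusted p = 0.075 with dox). Mcm6 (−0.88, limma adjusted p = 0.0525 with dox+TCP, and −0.61, adjusted p = 0.107 with dox) and Mcm7 (−0.41, adjusted p = 0.0947, and −0.41, adjusted p = 0.0991) passed in neither. In mm7, the build of the array's annotation in the file headers, the probe of Mcm2 lies at chr6:88958718-88958777, that of Mcm3 at chr1:20998636-20998695 and that of Mcm5 at chr8:73669372-73669432; exons and UTRs of that build were not analysed here.

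Among the 4 helicase activators, Mcm10, which helps the assembled helicase to start unwinding, was the 1 that passed. Its log2 ratios were −1.06 and −1.55 on the dox+TCP arrays and −0.80 and −1.18 on the dox arrays. All 4 arrays were low, with replicate 2 the lower in each group and the groups overlapping. Mcm10 fell by 59.6% with dox+TCP (log2 −1.31, SE 0.18, limma adjusted p = 0.0282) and fell by 49.7% with dox (−0.99, SE 0.18, adjusted p = 0.0446). With median centring Mcm10 still passed with dox+TCP (−0.81, limma adjusted p = 0.0356) and not with dox (−0.33, adjusted p = 0.223). Its probe lies at chr2:4908072-4908131 in mm7. Cdc45, the helicase cofactor that binds the MCM ring, had −0.32 and −0.44 with dox+TCP and −0.08 and 0.45 with dox; the groups did not overlap, and neither was called. The GINS subunit genes Gins1 (−0.85 with dox+TCP and −0.95 with dox) and Gins2 (−0.57 and −0.46) had estimates below 0 and were not called. A second Gins1 probe gave −0.55 with dox+TCP and −0.22 with dox.

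The polymerase and primase genes spread widely. Pole, the catalytic subunit of the leading-strand polymerase epsilon, had log2 ratios of −0.60 and −0.78 on the dox+TCP arrays and −0.65 and −0.81 on the dox arrays. The groups overlapped and all 4 values were low. Pole fell with dox+TCP (−0.69, SE 0.097, limma adjusted p = 0.0299) and with dox (−0.73, SE 0.097, adjusted p = 0.0288), and was the only 1 of the 8 genes of this role called in either comparison. Its centred estimates, −0.27 with dox+TCP and −0.15 with dox, kept the sign and did not pass. Pola1, the catalytic subunit of the polymerase alpha that extends primers, had the lowest single ratio of the set: −1.13 and −1.47 with dox+TCP and −0.40 and −2.21 with dox. The 2 dox arrays differed by more than any estimate of the gene, and Pola1 passed in neither group (−1.30 with dox+TCP, limma adjusted p = 0.163, and −1.31 with dox, adjusted p = 0.165). Pole2, the accessory subunit of epsilon (−0.49 with dox+TCP and −0.40 with dox), Pola2, the accessory subunit of alpha (−0.61 and −0.21), and the primase subunits Prim1 (−0.18 and −0.50) and Prim2 (−0.13 and −0.29) were not called. Of the polymerase delta subunits, catalytic Pold1 had 0.14 with dox+TCP and −0.17 with dox, and Pold2 had −0.24 and −0.30, with dox replicates on opposite sides of 0 for both.

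Of the clamp and its loader, Rfc5, a small subunit of the clamp loader, was the 1 of 6 that passed. Its log2 ratios were −0.71 and −0.94 on the dox+TCP arrays and −0.81 and −0.96 on the dox arrays. The groups overlapped and all values were low. Rfc5 fell with dox+TCP (−0.82, SE 0.10, limma adjusted p = 0.0257) and with dox (−0.89, SE 0.10, adjusted p = 0.0236), and had centred estimates of −0.25 with dox+TCP and −0.15 with dox. Pcna, the sliding clamp itself, had −0.85 and −1.43 with dox+TCP and −0.33 and −1.13 with dox. Each replicate 2 array was much the lower, and Pcna was not called (−1.14 with dox+TCP, limma adjusted p = 0.0694, and −0.73 with dox, adjusted p = 0.16). The loader subunits Rfc1 (−0.54 with dox+TCP and −1.03 with dox), Rfc2 (−0.56 and −0.48) and Rfc3 (−0.73 and −0.46) were not called either. Rfc4 had 0.34 and −0.01 with dox+TCP and 0.42 and −0.22 with dox, and its estimates of 0.17 with dox+TCP and 0.10 with dox became 0.66 with dox+TCP and 0.76 with dox under median centring, where both passed as higher.

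Single-strand binding protein RPA has 3 subunits. The large subunit gene Rpa1 had log2 ratios of −0.48 and −0.53 on the dox+TCP arrays and −0.39 and −0.42 on the dox arrays. The arrays of a group differed by less than 0.05 and the groups did not overlap. Rpa1 fell with dox+TCP (−0.50, SE 0.077, limma adjusted p = 0.0339) and with dox (−0.40, SE 0.077, adjusted p = 0.0495) after loess, and had 0.04 with dox+TCP and 0.31 with dox under median centring. Rpa2, the middle subunit, had −0.64 and −1.04 with dox+TCP and −0.71 and −0.64 with dox. It fell with dox+TCP (−0.84, limma adjusted p = 0.0342) and lay just outside the threshold with dox (−0.68, adjusted p = 0.0501). The small subunit Rpa3 was apart from them, with 0.23 and 0.24 on the dox+TCP arrays and 0.11 and −0.48 on the dox arrays, and was not called after loess (0.23 with dox+TCP, limma adjusted p = 0.413, and −0.18 with dox, adjusted p = 0.531); with median centring it passed as higher with dox+TCP (0.65).

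Both genes that finish Okazaki fragments fell with dox+TCP after loess. With median centring both kept that sign with dox+TCP without passing, and both had estimates above 0 with dox. Lig1, the ligase that seals the fragments, had log2 ratios of −0.64 and −0.70 on the dox+TCP arrays and −0.60 and −0.51 on the dox arrays. The groups lay close together without overlap. Lig1 fell with dox+TCP (−0.67, SE 0.080, limma adjusted p = 0.0246) and with dox (−0.55, SE 0.080, adjusted p = 0.0324); its centred estimates were −0.11 with dox+TCP and 0.18 with dox. Fen1, the nuclease that trims the flaps of the fragments, had −0.80 and −1.27 with dox+TCP and −0.42 and −0.29 with dox. Both dox+TCP arrays lay below both dox arrays. Fen1 fell by 51.1% with dox+TCP (−1.03, SE 0.15, limma adjusted p = 0.0302) and was not called with dox (−0.35, adjusted p = 0.202). Its centred estimates were −0.65 with dox+TCP (limma adjusted p = 0.0544) and 0.19 with dox.

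The nucleotide supply genes held the strongest estimate with dox+TCP. Tyms, the thymidylate synthase that makes the thymine nucleotide from deoxyuridylate, had log2 ratios of −1.34 and −1.86 on the dox+TCP arrays and −0.88 and −1.74 on the dox arrays. All 4 were low, the replicate 2 array was the lower of each pair, and the groups overlapped. Tyms fell by 67% with dox+TCP (−1.60, SE 0.27, limma adjusted p = 0.0396) and missed the threshold with dox (−1.31, adjusted p = 0.0575). A second bright Tyms probe gave −1.57 with dox+TCP and −1.33 with dox, and another, dim one −0.0054 with dox+TCP and −0.19 with dox. With median centring Tyms passed with dox+TCP (−1.09, limma adjusted p = 0.0311) and not with dox (−0.64, adjusted p = 0.0971). Tk1, the thymidine kinase of the salvage route, had −0.83 and −0.77 with dox+TCP and −1.06 and −0.71 with dox. The dox+TCP values lay within the range of the dox values. Tk1 fell with dox+TCP (−0.80, SE 0.12, limma adjusted p = 0.0321) and with dox (−0.88, SE 0.12, adjusted p = 0.0288), with centred estimates of −0.39 with dox+TCP and −0.30 with dox. The ribonucleotide reductase genes were not called: Rrm1, the large subunit, had −0.46 with dox+TCP and −0.38 with dox, and Rrm2, the small subunit, had −0.56 and −0.16, with dox replicates at 0.43 and −0.76. The Tyms probe lies at chr5:29093977-29094036 and the Tk1 probe at chr11:117924836-117924895 in mm7.

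**Figure D2:**
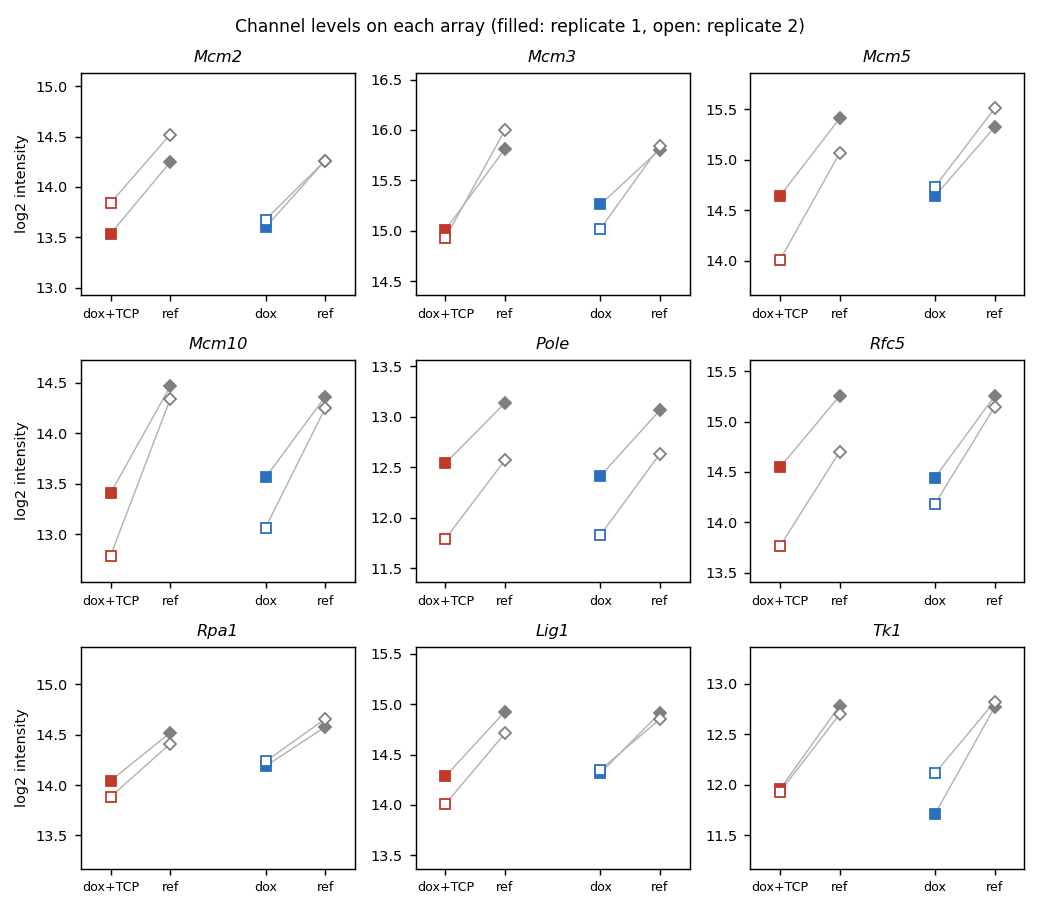
Log2 intensity of each channel on each array for the 9 genes called with dox: treated cells in Cy5 (squares, red for dox+TCP and blue for dox) left of the Cy3 reference of the same array (grey diamonds), joined by a line; filled symbols are replicate 1 and open symbols replicate 2. Each panel spans the same number of log2 units, and on every array the Cy5 point lies below its Cy3 partner after loess; with median centring Mcm2, Mcm3, Mcm5, Rpa1 and Lig1 had dox estimates above 0, and Rpa1 also with dox+TCP.

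Set against the promoter windows, the calls after loess fell on both sides. Of all genes 8.09% were then called lower with dox+TCP and 8.26% with dox. Of the 12 genes with 1 of the 4 strings, 4 fell with dox+TCP and 3 with dox, with median log2 ratios of −0.62 with dox+TCP and −0.43 with dox. Of the 20 genes with a window and none of the strings, 8 fell with dox+TCP and 5 with dox, with medians of −0.56 with dox+TCP and −0.45 with dox. Mcm10, Tyms and Tk1 were among those without a match in the window, and Cdc6 and Cdt1 among those with 1. With median centring the only genes called lower were Mcm10 and Tyms with dox+TCP, both without a match. Among genes with a window, Cdc6 and Cdt1 then passed as higher with dox, Rpa3 with dox+TCP and Rfc4 in both groups. Rpa3 and Rfc4 had no match. Of all genes 5.17% were then lower and 18.7% higher with dox+TCP, and 5.31% and 22.8% with dox.

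The comparison of dox+TCP with dox asks what TCP adds to doxycycline. No gene passed limma's test at an adjusted p of 0.05, 0 of the 39 and 0% of all 21409 genes, where 945 had an unadjusted p under 0.05. Of the 39 genes only Fen1 had one: its difference was −0.68 (95% interval −1.26 to −0.09, unadjusted p = 0.0332, limma adjusted p = 0.996), and it was lower in both replicate pairs, with differences of −0.38 for replicate 1 and −0.98 for replicate 2. Cdc45 (−0.57, interval −1.20 to 0.07) and Cdc6 (−0.56, interval −1.18 to 0.06) were next. Fen1, Cdc45 and Cdc6 had both dox+TCP arrays below both dox arrays. The dimmer second Cdc6 probe did not: it had 0.55 and 0.26 with dox+TCP and 0.39 and 0.61 with dox, which overlap. The set had a median difference of −0.098, against 0.04 for all genes, with −0.10 within the slide that held both replicate 1 arrays and −0.11 between the replicate 2 arrays. The replicate 2 arrays were scanned on different days, so in their differences TCP and scan day cannot be told apart. Both dox+TCP arrays lay below both dox arrays for 10 of the 39 genes, where 12.9% of all genes do so, and above them for 2, where 20.2% do. The 2 were Prim2 (0.15, interval −0.16 to 0.46), and Rpa3 (0.42, interval −0.25 to 1.09). Intervals were wide: for Pola1 the difference lay between −1.92 and 1.93, while for Mcm2 it lay between −0.38 and 0.24, for Rpa1 between −0.40 and 0.21 and for Lig1 between −0.44 and 0.20. All 6 MCM genes had a difference below 0, from −0.27 (Mcm6) to −0.0052 (Mcm7), and none passed.

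**Figure D3:**
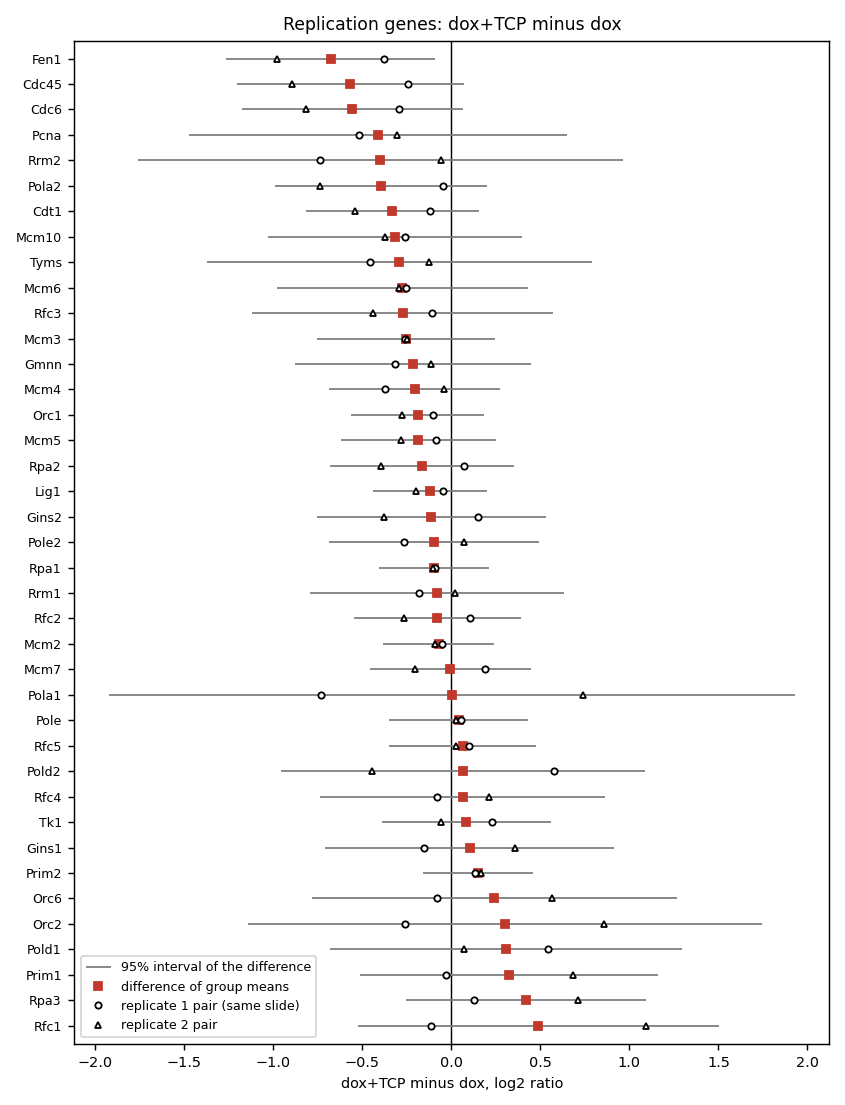
Difference in log2 ratio, dox+TCP minus dox, for the 39 genes in order of size: squares are the difference of the group means, lines its 95% interval from limma, open circles the replicate 1 pair, which shares a slide, and triangles the replicate 2 pair. The interval of Fen1 (−1.26 to −0.09) is the only one that leaves out 0, and no adjusted p passed.

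The sign of many of these ratios changed with how the arrays were scaled. In the scanner's own log ratios, which carry its own dye normalization, the median of the set was −0.46 and −0.71 on the dox+TCP arrays and −0.44 and −0.52 on the dox arrays, and 36 and 36 of 39 genes lay below the array's median ratio with dox+TCP and 33 and 33 with dox. With median centring in place of loess the medians were −0.05 and −0.18 with dox+TCP and 0.11 and 0.20 with dox, where 22 and 27 of 39 lay below 0 with dox+TCP and 15 and 15 with dox. Of all genes called, 47.5% were higher with dox+TCP and 43.4% with dox after loess, against 78.3% and 81.1% with median centring. Centring also moved the median of all genes tested, to 0.17 and 0.19 on the dox+TCP arrays and 0.17 and 0.21 on the dox arrays. Of the 39 genes, 36 belong to the brightest of 4 equal groups of all genes, in which the centred median of all genes was 0.43 with dox+TCP and 0.55 with dox. The replication genes in it had centred medians of −0.13 with dox+TCP and 0.17 with dox, below those of all genes in it. Within it genes were not matched for brightness: it begins at a log2 brightness of 10.985, and the replication genes had a median of 13.658.

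**Figure D4:**
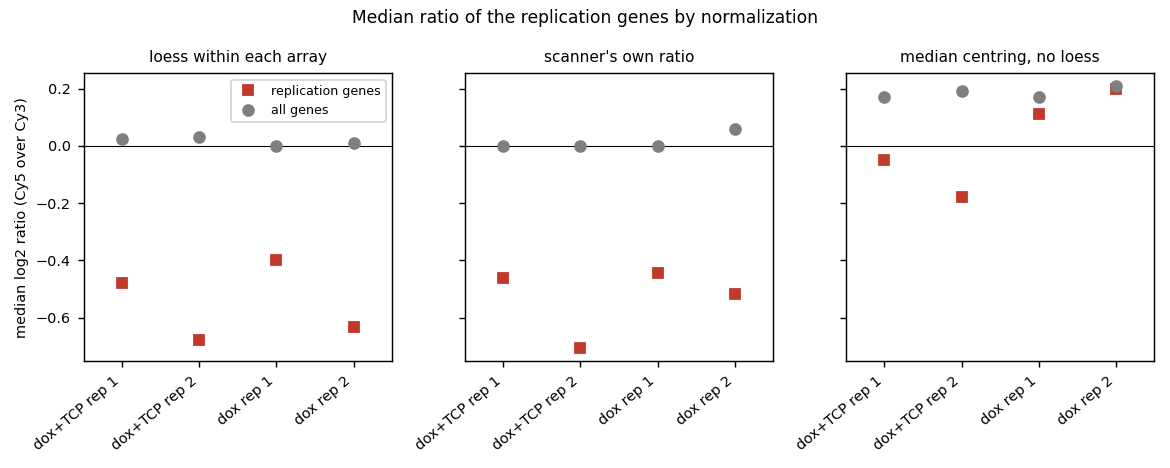
Median log2 ratio (Cy5 over Cy3) of the 39 replication genes (squares) and of all genes or, for the scanner's ratio, all spots (circles) on each array, under loess, the scanner's own normalization and median centring. The replication genes lie below all genes on every array under loess and the scanner's ratio. Under median centring they also lie below all genes on every array, by little on dox replicate 2 (0.20 against 0.21). Their centred medians lie above 0 on both dox arrays and below 0 on both dox+TCP arrays. For the centred group estimates, the set's median minus that of all genes was 0.0010 with dox, so level with them, and −0.31 with dox+TCP.

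The other genes of the pathway were read from lists that cover 84 tested genes of 86 (Atr and Ctps1 had no matched probe). After loess 11 of the 84 fell (13.1%, against 8.09% of all genes) and 4 rose with dox+TCP, and 8 fell (9.52%, near the 8.26% of all genes) and 6 rose with dox. With median centring 5 fell and 12 rose with dox+TCP, against 5.17% and 18.7% of all genes, and 1 fell and 26 rose with dox, against 5.31% and 22.8%. Of the genes named below from their loess calls, 8 of 15 were still called the same way with median centring for dox+TCP (Hells, Dut, Umps, Pold4, E2f4, Cdkn1a, Cdkn1b and Rad9a) and 7 of 14 for dox (Hells, Pold4, Mcm9, Cdkn1a, Cdkn1b, Rad9a and Wee1). The median log2 ratio of all 84 genes was −0.32 with dox+TCP and −0.14 with dox after loess. With median centring it lay above 0 in both groups, at 0.10 with dox+TCP and 0.33 with dox. Among 11 replication-coupled chromatin genes 3 fell after loess with dox+TCP and 2 with dox, and 0 rose. With median centring 1 fell and 0 rose with dox+TCP, and 1 fell and 2 rose with dox. Hells, a chromatin remodeller needed for DNA methylation, had the lowest estimates of all these lists (−2.22, limma adjusted p = 0.0427 with dox+TCP, and −2.23, adjusted p = 0.0432 with dox), also with median centring (−1.83 with dox+TCP and −1.69 with dox). Uhrf1, which brings the maintenance methyltransferase to newly copied DNA, fell after loess (−0.77 with dox+TCP and −0.70 with dox) and had −0.23 with dox+TCP and 0.0027 with dox under median centring. Chaf1a, the large subunit of the histone chaperone CAF-1, fell with dox+TCP (−0.60).

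Of 11 further nucleotide genes, Dut, which breaks down dUTP (−1.23 with dox+TCP and −1.14 with dox), and Umps, which makes uridylate (−1.18 with dox+TCP and −1.05 with dox), fell in both groups after loess and 0 rose; with median centring 2 fell and 1 rose with dox+TCP, and 0 fell and 3 rose with dox, where Dut had −0.42 and Umps −0.40 without passing. After loess, of 17 fork genes 3 fell and 1 rose with dox+TCP, and 1 fell and 1 rose with dox. Chtf18, part of an alternative clamp loader, fell in both (−1.13 with dox+TCP and −1.20 with dox), Pold3 (−0.70), a polymerase delta subunit, and Pole3 (−0.57), a polymerase epsilon subunit, fell with dox+TCP, and Pold4, the smallest delta subunit, rose in both (1.19 with dox+TCP and 0.87 with dox), also with median centring (1.52 with dox+TCP and 1.33 with dox). With median centring 1 of the 17 fork genes fell and 1 rose with dox+TCP, and 0 fell and 3 rose with dox. Of 16 licensing genes after loess, Recql4, a helicase needed at initiation, fell (−0.68 with dox+TCP and −0.67 with dox). Mcm9, an MCM relative that acts in recombination repair, rose with dox (1.09) and was not called with dox+TCP (0.70). With median centring Mcm9 passed as higher in both (0.97 with dox+TCP and 1.45 with dox). Of the 16 licensing genes 0 then fell in either group, and 2 rose with dox+TCP and 5 with dox. After loess 8.09% of all genes were lower and 7.31% higher with dox+TCP, and 8.26% and 6.32% with dox. With median centring these shares were 5.17% and 18.7% with dox+TCP, and 5.31% and 22.8% with dox.

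Of 13 E2F and pocket protein genes only E2f4, usually a repressor of these promoters, passed after loess. It fell (−1.03 with dox+TCP and −0.91 with dox), which makes 7.69% of the list. Among all genes 8.09% were then lower and 7.31% higher with dox+TCP, and 8.26% and 6.32% with dox. With median centring 1 of the 13 fell and 3 rose with dox+TCP, and 0 fell and 5 rose with dox. Among all genes 5.17% were then lower and 18.7% higher with dox+TCP, and 5.31% and 22.8% with dox. After loess, of 8 S-phase cyclin and kinase genes Cdkn1a, which encodes the cell cycle inhibitor p21, rose (1.80 with dox+TCP and 1.02 with dox), as did Cdkn1b, which encodes p27 (0.59 with dox+TCP and 0.51 with dox), while the S-phase cyclin gene Ccne1 fell (−1.11 with dox+TCP and −0.78 with dox). Ccne1 did not pass with median centring (−0.51 with dox+TCP and −0.02 with dox), where 0 genes of that list fell in either group and 3 rose with dox+TCP and 4 with dox. The log2 ratios of Cdkn1a were 1.91 and 1.69 on the dox+TCP arrays and 0.99 and 1.06 on the dox arrays, without overlap, and its difference of 0.78 did not pass (limma adjusted p = 0.996). After loess, of 8 checkpoint genes Rad9a, part of the checkpoint clamp, rose in both (0.55 with dox+TCP and 0.49 with dox), and Wee1, the kinase that holds back Cdk1, rose with dox (0.81) and had 0.25 with dox+TCP. With median centring 2 of the 8 rose with dox+TCP and 4 with dox.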

How the data were processed

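Total RNA of 4 samples was hybridised to 4 Agilent arrays (design 014868) with 2 dyes each. Spot and local background intensities were scanned by the authors and extracted with Agilent Feature Extraction 10.1.1.1, per the file headers and the submitters' processing notes. The log10 ratios of Cy5 over Cy3 had the software's own background subtraction and dye normalization, per the file headers, and the authors' deposited matrix of log10 values matched them within 0.005. Further upstream work is not stated there.

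A local background above 2 times the median of its array and channel was set to that median. Signals were corrected with normexp (offset 50) in limma 3.58.1 (R 4.3.3) and normalized by loess within each array, with the 1639 control spots at weight 0. Repeated spots were averaged. The 31112 of 41174 probes tested were well above background in Cy5 on each of the 2 arrays of some group, or in Cy3 on every array, and the brightest such probe stood for its gene. The log2 ratios of Cy5 over Cy3 were computed from the deposited intensities, other than those given as the scanner's ratio or the authors' matrix, which are the deposited log10 ratios turned to log2. limma fitted a mean per group over all 4 arrays (2 residual and 1.79 prior degrees of freedom), with eBayes and Benjamini-Hochberg adjustment at 0.05 over 21409 genes, and tested each mean against 0 and dox+TCP against dox. The reference is the control's RNA on the same array, so these tests hold no separate estimate of the control's own spread. Differences of the reference between arrays enter the ratios and so the spread within a group. Both comparisons with the reference share it and were not set against each other. The fit was tested on simulated data.

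The genes were matched by the name in the files (35 of 39, Cdc45l and Orc1l included) or an older name in the RefSeq table of GRCm38.p6. All 39 are described. From each other pathway list, the called genes were named, at most 4 per comparison by smallest adjusted p. The members and lists were chosen with earlier results of these data known. Alternatives covered background, normalization, probe filter and choice, the replicate number as a block, the arrays in the fit and, chosen after seeing the data, scan day and slide.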

Additional observations from a re-analysis of the deposited data

Results flagged for a closer look

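Cdt1, which encodes the licensing factor that loads the MCM ring, had estimates of opposite sign in the 2 groups: −0.13 with dox+TCP (arrays at −0.10 and −0.16) and 0.20 with dox (0.02 and 0.39). Both arrays of each group lay on their group's side of 0, by little in dox replicate 1. The difference, −0.33, did not pass (limma unadjusted p = 0.13, adjusted p = 0.996), and with median centring both estimates were above 0 (0.51 with dox+TCP and 0.98 with dox).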

How the results depend on the processing

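The set's median stayed below 0 in both comparisons with the reference under each alternative run, other than dox under median centring. Of 2508 results of single genes under the alternatives, 8 reversed, 326 lost and 63 gained a call, and 133 changed sign without a call in either setting. Median centring gave 5109 genes called with dox+TCP (2 replication genes lower, 2 higher, median −0.13) and 6021 with dox (0 lower, 4 higher, median 0.18), and a median difference of −0.27. It turned Rpa1 (0.0401) with dox+TCP and Gmnn (0.77), Mcm2 (0.055), Mcm3 (0.11), Mcm5 (0.039), Rpa1 (0.31), Lig1 (0.18) and Uhrf1 (0.0027) with dox. With backgrounds as read 0 genes were called in any comparison (15 replication genes lower at an unadjusted p under 0.05 with dox+TCP and 16 with dox), and with scan day as a block, chosen after seeing the data, 0 (21 and 15); the median differences were −0.11 and −0.028. The dox+TCP arrays alone called 5936 genes and the dox arrays alone 0, with 0 replication genes (16 lower at an unadjusted p under 0.05). Leaving out 1 array in turn, the genes called ranged from 0 to 5936 with dox+TCP and from 0 to 4126 with dox, the replication genes called lower from 0 to 21 and from 0 to 13, their median from −0.68 to −0.48 and from −0.63 to −0.40, and the median difference from −0.23 to −0.028. A lone array left in a group is assumed to vary like the other group. The median difference was −0.15 with the scanner's ratio, −0.15 with the authors' matrix (−0.149) and −0.11 when a gene's probes were averaged. The labels tie same-numbered samples to no shared culture or day, although their deviations correlated (0.47); with the replicate block 5141 genes were called with dox+TCP (19 replication genes lower), 4873 with dox (13) and 0 between them. Scan day set dox+TCP replicate 2 apart from the other arrays. That block is therefore nearly the same check as leaving this array out, with the same median difference of −0.028. Slide as a random block could not be fitted. The cause of these changes was not tested.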
